A study of Homo sapiens with 9 samples.

Results

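The JmjC histone lysine demethylases described here are 10 genes of the KDM3 to KDM7 families, taken from the table by their symbols: KDM3A, KDM3B, KDM4A, KDM4B, KDM4C, KDM5A, KDM5B, KDM6A, KDM6B and KDM7A. They are 10 of 26475 genes in the count table and 10 of the 13784 that had enough counts to be tested, so none was lost to the filter on low counts. The genes were put together because histone demethylases were already known to be higher in these libraries in both conditions, so their differences from Control are a description. Which of them passed the threshold of the fit over all genes is stated as part of it, beside the share of all genes that did, and no p-value is given for them and nothing is inferred from these calls. Other proteins with the same domain, such as KDM5C and PHF2, were not among the 10 and are described apart.

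RNA was measured in hTERT_RPE1 cells, a line of human retinal pigment epithelial cells immortalised with telomerase, 24 h after seeding on fibronectin. In sh_PIP4K2B, cells carried a lentiviral hairpin against PIP4K2B, a lipid kinase that phosphorylates phosphatidylinositol 5-phosphate, and were kept on coated glass, with 1 library for each of the 3 hairpins. Control cells carried the empty pLKO vector on coated glass (3 libraries), and Soft cells carried the same vector on a coated gel of 2.3 kPa (3 libraries). The titles and the study's methods name this empty vector, which the treatment label calls a control shRNA. All 3 conditions thus share the cell line, the vector backbone, the coating and the time, and Soft carries no hairpin against PIP4K2B. A difference between hairpins cannot be told apart from a difference between single libraries, and nothing in the labels says that the Control or Soft libraries came from separate cultures, so every p-value measures the spread between these libraries.

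Methyl groups on histone lysines are placed by methyltransferases and taken off by demethylases, most of which carry the JmjC domain. The domain hydroxylates the methyl group with oxygen, iron and 2-oxoglutarate, a product of the citric acid cycle, so that the methyl group leaves as formaldehyde. Several of these enzymes are known to respond to low oxygen, either because their catalysis slows or because their genes are targets of the hypoxia-inducible factors. The families differ in their substrate. KDM3 enzymes act on H3K9, KDM4 enzymes on H3K9 and H3K36, KDM5 enzymes on H3K4, KDM6 enzymes on H3K27, and KDM7A on both H3K9 and H3K27. H3K9 and H3K27 methylation are known from silent chromatin, and H3K4 methylation from active promoters.

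Levels are given in CPM (counts scaled to equal library totals) after TMM normalisation, and a log2 fold change is the difference of log2 levels fitted by edgeR over the 9 libraries. Library totals ran from 19217346 to 24020799 counts, and 3 counts correspond to 0.131 to 0.148 CPM. PIP4K2B was at 29.96% to 39.6% of its Control mean with the hairpins, and at 119.02 to 126.68 CPM in Soft beside 119.5 to 123.68 CPM in Control. Libraries of sh_PIP4K2B were spread more widely (median SD of log2 CPM 0.36) than those of Control (0.081) or Soft (0.073). Of the pigment epithelium markers, RPE65, TYR and LRAT were at or near 0 in this line, and RLBP1 was at 0 in Control and sh_PIP4K2B and at 0.313 to 0.524 CPM in Soft. MITF was lower in both conditions, at 36.5, 30.8 and 26.0 CPM on average in Control, sh_PIP4K2B and Soft, and called in neither. PMEL was at 0.341, 0.176 and 0.744 CPM. OTX2 was at 10.9, 17.1 and 37.2 CPM on average in Control, sh_PIP4K2B and Soft, and BEST1, at 0.147, 0.396 and 0.719 CPM, was also higher in Soft. The keratins KRT8 (1079 CPM in Control, 558 and 547 in the others) and KRT18 (902, 420 and 364 CPM) were called lower in Soft, and KRT18 also in sh_PIP4K2B. The epithelial markers CDH1 and EPCAM were at 0 in Control and at or near 0 in the others. Of the mesenchymal markers, VIM was at 8594, 6187 and 6152 CPM, CDH2 at 412, 444 and 344 CPM, and FN1 at 27567, 23371 and 34216 CPM. Of the neuronal markers, SYP was at 0.239, 0.659 and 0.726 CPM and RBFOX3 at 0.0592, 0.0479 and 0.0784 CPM. CDH5, ALB and MYH7, markers of other cell types, were at or near 0, but CD68 was at 66.0 CPM in Control, 63.7 in sh_PIP4K2B and 144.70 in Soft, PECAM1 was at 0.103, 0.208 and 4.79 CPM, and the leukocyte marker PTPRC at 0.447, 0.319 and 0.321 CPM. Their part in the values of the demethylases was not tested.

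Against Control, 4 of the 10 demethylases were called higher in sh_PIP4K2B at an adjusted p under 0.01 (KDM3A, KDM5B, KDM6B and KDM7A), where 2.76% of all genes tested were (5.54% in either direction). In Soft 5 were called higher, the same 4 genes and KDM3B, where 15.8% of all genes tested were (30.6% in either direction). The 4 genes called higher in both stood beside 1.38% of all genes tested. No member was called lower, where 2.77% of all genes were in sh_PIP4K2B and 14.8% in Soft. The calls depend on the spread the fit assumes, which is estimated over all 9 libraries. The widely spread hairpin libraries therefore enter the SE in Soft too. With only the 6 libraries of Soft and Control, 9 of the 10 were called higher (35.5% of all genes). With only the 6 of sh_PIP4K2B and Control, 0 of the 10 passed (0.0375% of all genes). Without Control replicate 2, where 66 of all genes were called in sh_PIP4K2B, only KDM6B of the 10 passed. The log2 fold changes of KDM3A and KDM5B were then 0.95 and 1.21. With DESeq2, which called 1997 genes in sh_PIP4K2B beside 763, KDM4B and KDM6A passed there as well. Both comparisons use the same 3 Control libraries, and since the genes were picked from these contrasts nothing is read from the counts. The median log2 fold change of the 10 was 0.90 in sh_PIP4K2B and 0.73 in Soft, beside 0.050 and 0.013 for all genes tested. In bulk RNA, more cells in a given state and more RNA per cell cannot be told apart.

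**Figure D1:**
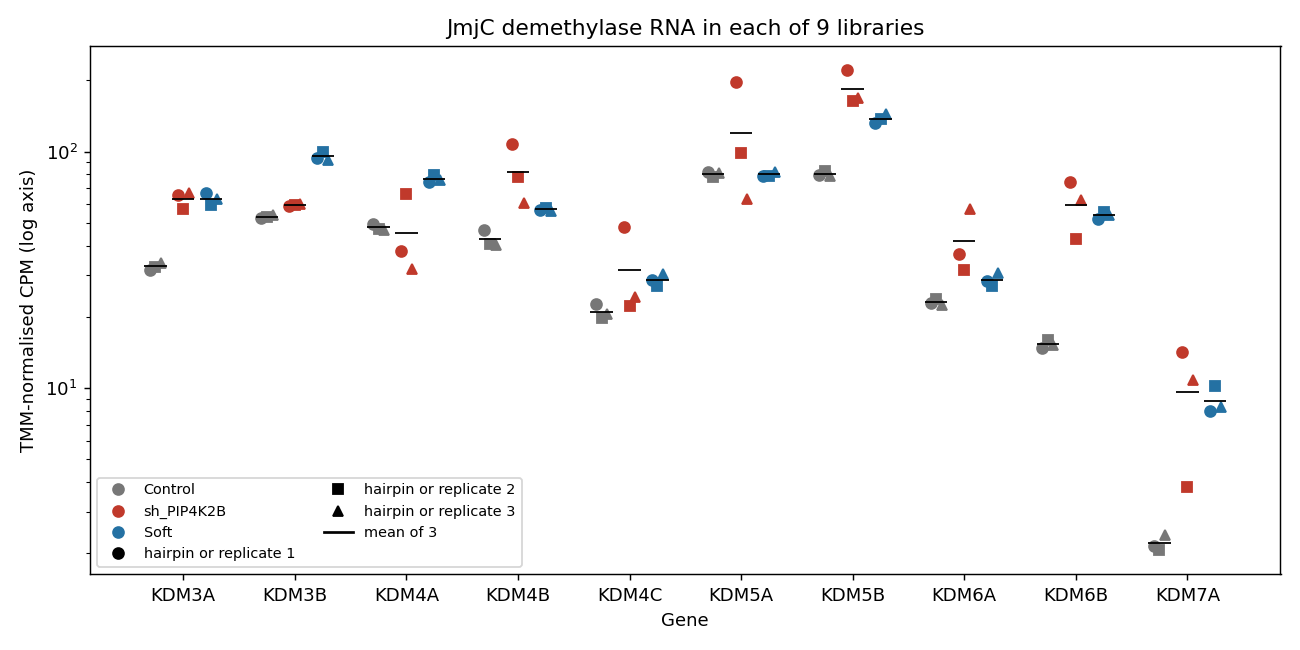
TMM-normalised level of each of the 10 demethylases in CPM (log axis) in the 3 Control, 3 sh_PIP4K2B and 3 Soft libraries, 1 point per library with the symbol giving the hairpin or replicate and a line at the mean of 3. KDM6B and KDM7A stand farthest above Control in both conditions, and KDM5A lies at the Control level in Soft. Relative to their mean, the hairpin libraries are spread more widely than the others for every gene but KDM3B.

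KDM6B, also called JMJD3, removes methyl groups from H3K27 and is known as a gene quickly induced by inflammatory signals. Its gene spans chromosome 17 from 7834217 to 7854796 (plus strand) in GRCh38, as annotated by GENCODE. Its level was 14.8, 16.0 and 15.2 CPM in the 3 Control libraries. It was 74.2, 42.6 and 62.2 CPM with hairpins #1, #2 and #3, and 52.1, 55.3 and 53.8 CPM in Soft. No hairpin or Soft library overlapped Control, and even the lowest hairpin was at 2.78 times the Control mean. On the log2 scale the gene differed from Control by 1.96 (SE 0.18) with the hairpins and by 1.81 (SE 0.18) on the gel. Its relative KDM6A, or UTX, has the same substrate and is a subunit of the KMT2C and KMT2D complexes. KDM6A lies on chromosome X from 44873188 to 45112779, plus strand. Its level was 22.9, 23.7 and 22.5 CPM in Control, 37.0, 31.7 and 56.9 CPM with the 3 hairpins and 28.4, 27.05 and 30.8 CPM in Soft. The groups did not overlap with Control for either gene, but KDM6A differed less, with log2 fold changes of 0.86 (SE 0.19) and 0.32 (SE 0.19), and passed the threshold in neither comparison. It did pass in sh_PIP4K2B with DESeq2 (0.85), without hairpin #2 (1.03) or without hairpin #3 (0.57).

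KDM7A, at chromosome 7 from 140084746 to 140176983 (minus strand), encodes an enzyme for H3K9 and H3K27 that binds trimethylated H3K4 through a PHD finger. It was by far the least abundant of the 10 with 46 to 55 counts in each Control library. Its level was 2.14, 2.06 and 2.40 CPM in Control, 14.2, 3.81 and 10.8 CPM with the 3 hairpins, and 8.03, 10.2 and 8.31 CPM in Soft. Every hairpin and Soft library lay above Control, but hairpin #1 reached 6.46 times the Control mean and hairpin #2 only 1.73 times. The log2 fold changes were the largest of the 10, 2.12 (SE 0.41) in sh_PIP4K2B and 2.00 (SE 0.41) in Soft. Its calls were the most easily lost of the 10, in 12 of 17 alternatives in sh_PIP4K2B and in 5 of 17 in Soft. In sh_PIP4K2B it did not pass without any 1 of the 3 Control libraries, any 1 of the 3 Soft libraries, hairpin #1 or hairpin #3 (log2 fold changes of 1.72 to 2.19). In Soft it did not pass without any 1 of the Control libraries, Soft replicate 2 or Soft replicate 3 (1.89 to 2.07).

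KDM5B, at chromosome 1 from 202724495 to 202808487 (minus strand), removes methyl groups from H3K4 and is known for its high level in breast cancers. Its level was 79.5, 83.1 and 79.1 CPM in Control. With hairpins #1, #2 and #3 it was 221.28, 163.24 and 168.22 CPM, and in Soft 132.56, 136.71 and 144.42 CPM. Both conditions lay wholly above Control, and the hairpin libraries lay wholly above Soft. Its log2 difference from Control was 1.19 (SE 0.13) with the hairpins and 0.77 (SE 0.13) in Soft. KDM5A, its close relative on chromosome 12 from 280057 to 389320 (minus strand), first found as a partner of the retinoblastoma protein, behaved otherwise. It was at 82.0, 78.1 and 81.1 CPM in Control and at 78.8, 79.2 and 82.3 CPM in Soft. With the hairpins it was 197.01, 98.9 and 63.1 CPM, which is 2.45, 1.23 and 0.785 times the Control mean, so that the 3 hairpins did not share a direction. The log2 fold change of 0.57 (SE 0.33) in sh_PIP4K2B was 0.0079 without hairpin #1, and in Soft it was -0.0046 (SE 0.32). The hairpin libraries, with an SD of 57.95% of their mean beside 2.55% in Control and 2.40% in Soft, enter both SEs.

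KDM3A and KDM3B are paralogues that remove methyl groups from mono- and dimethylated H3K9, and KDM3A is a known target of hypoxia-inducible factor. KDM3A lies on chromosome 2 from 86440647 to 86492716 and KDM3B on chromosome 5 from 138352685 to 138437028, both on the plus strand. KDM3A was at 31.6, 32.6 and 34.0 CPM in Control, 65.6, 57.3 and 66.9 CPM with the hairpins and 67.0, 59.3 and 63.1 CPM in Soft. All 6 libraries lay near 2 times Control, and the highest hairpin was 1.17 times the lowest. The log2 fold change was 0.95 in both conditions (SE 0.10 in each). KDM3B was at 52.2, 53.0 and 53.7 CPM in Control, 58.8, 59.2 and 60.1 CPM with the hairpins, and 94.1, 99.6 and 92.4 CPM in Soft. The 3 hairpins were within 1.02 times of each other at 1.11 to 1.13 times Control, and Soft was well above them, with log2 fold changes of 0.16 (SE 0.085) in sh_PIP4K2B and 0.85 (SE 0.085) in Soft. The paralogues therefore differed in the size of the rise: KDM3A rose alike in both conditions, and KDM3B rose far less with the hairpins than in Soft. Every KDM3B hairpin library still lay above every Control library.

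The KDM4 enzymes act on trimethylated H3K9 and H3K36. KDM4B lies on chromosome 19 from 4969113 to 5153598 and KDM4C on chromosome 9 from 6720863 to 7175648, both on the plus strand. KDM4B was at 46.6, 40.8 and 40.4 CPM in Control, 107.88, 78.0 and 60.4 CPM with hairpins #1, #2 and #3 and 56.6, 57.8 and 56.3 CPM in Soft. Both conditions lay above Control, with log2 fold changes of 0.95 (SE 0.19) and 0.42 (SE 0.18), but neither was called. The difference in sh_PIP4K2B fell just short of the threshold. It did pass with DESeq2 (0.94), upper quartile scaling (0.92), no filter (0.94) or at least 10 counts in every library (0.95). Without hairpin #1 (0.70) or hairpin #3 (1.12) it passed too. The difference in Soft passed without hairpin #1 (0.40) and with the 2 conditions alone (0.41). KDM4C was at 22.7, 19.8 and 20.6 CPM in Control, 48.2, 22.3 and 24.2 CPM with the hairpins, and 28.5, 27.1 and 30.4 CPM in Soft. Only hairpin #1 stood far from Control, at 2.29 times its mean, while hairpin #2 lay within the Control range. Its log2 fold changes were 0.59 (SE 0.26) in sh_PIP4K2B and 0.45 (SE 0.26) in Soft, and without hairpin #1 the first was 0.14.

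KDM4A, at chromosome 1 from 43650149 to 43705518 (plus strand), was at 49.5, 47.2 and 46.7 CPM in Control, 37.9, 65.9 and 31.8 CPM with the hairpins, and 74.0, 79.5 and 76.2 CPM in Soft. Hairpin #2 lay above Control and hairpins #1 and #3 below it, so the log2 fold change in sh_PIP4K2B was -0.08 (SE 0.23), while in Soft it was 0.68 (SE 0.23) and passed the threshold only when hairpin #2 was left out, scaling was by library size or the hairpin libraries were left out of the fit. The counts of KDM4A carry a reservation, since 43.99% of the 75-base stretches of its transcript also occur in a readthrough gene (ENSG00000284989) and those of the other 9 members in no other gene. Its counts were also not whole in 6 of 9 libraries, and with the antisense gene KDM4A-AS1 they summed to whole numbers in 9 of 9 (tolerance 0.0015). KDM4A-AS1 itself held only 12.7 to 35.7 counts. How strand entered the counting is not given in the sources used here.

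**Figure D2:**
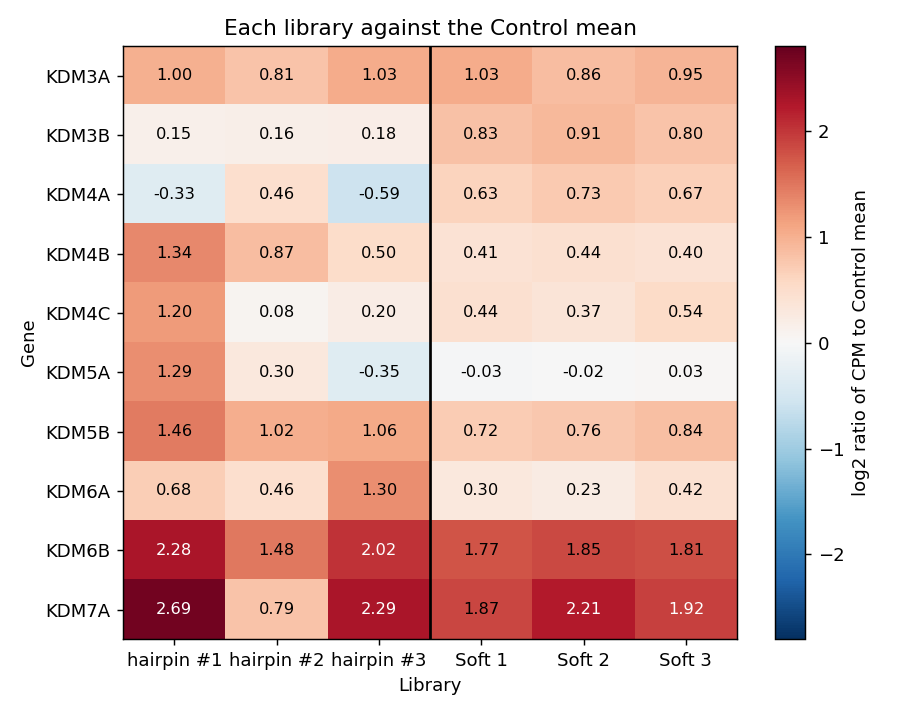
Heat map of the log2 ratio of CPM to the Control mean, with a row for each demethylase and a column for each hairpin and Soft library, where red is above and blue below Control and the value stands in the cell. KDM5A and KDM4A change sign between hairpins, while the 3 Soft columns are alike for each gene.

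Set out by hairpin, hairpin #1 gave the highest of the 3 values for 6 of the 10 genes, beside 36.4% of all genes tested, and hairpin #2 for 1, beside 29.4%. Hairpin #2 gave the lowest value for 6, for which the share of all genes is not given here, so nothing is read from it. The demethylases above the highest Control library were 9 with hairpin #1, 9 with #2 and 8 with #3, beside 44.6%, 43.0% and 43.9% of all genes tested. Those more than 1.5-fold above the Control mean were 8, 5 and 5, beside 19.2%, 11.2% and 18.0%. Counted over all hairpins, 7 of the 10 had every hairpin library above every Control library (17.4% of all genes), and 9 had every Soft library above it (40.4%), KDM5A being the exception. None had every library of a condition below Control, where 16.7% of all genes did in sh_PIP4K2B and 39.1% in Soft. Both held for 7 genes, where 9.9% of all genes tested did the same: KDM3A, KDM3B, KDM4B, KDM5B, KDM6A, KDM6B and KDM7A.

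To see which genes carried the rise, levels were divided by transcript length, since raw counts favour long transcripts. The summed level of the 10 was 60.5 ± 0.915 CPM per kb in Control (SD, n = 3), 102.17 ± 17.7 in sh_PIP4K2B (n = 3) and 97.5 ± 1.03 in Soft (n = 3). The hairpins reached 2.03, 1.55 and 1.496 times the Control sum, and the Soft libraries 1.59, 1.62 and 1.63 times. Of the net rise of 41.7 CPM per kb in sh_PIP4K2B, KDM5B supplied 26.7%, KDM4B 16.9%, KDM6B 15.8% and KDM3A 15.7%. Of the 37.1 CPM per kb in Soft, KDM3A supplied 17.6%, KDM4A 17.3%, KDM3B 17.03%, KDM5B 16.6% and KDM6B 15.4%. The 4 genes called in both conditions gave 60.2% of the rise in sh_PIP4K2B (51.998%, 55.5% and 82.2% with hairpins #1, #2 and #3) and 51.6% in Soft, and KDM7A, though its fold was the largest, gave 1.92% and 1.94%. KDM5A supplied 17.6% of the rise with hairpin #1 and -5.39% with hairpin #3, and KDM4A gave -3.55%, 12.2% and -11.9% with hairpins #1, #2 and #3.

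**Figure D3:**
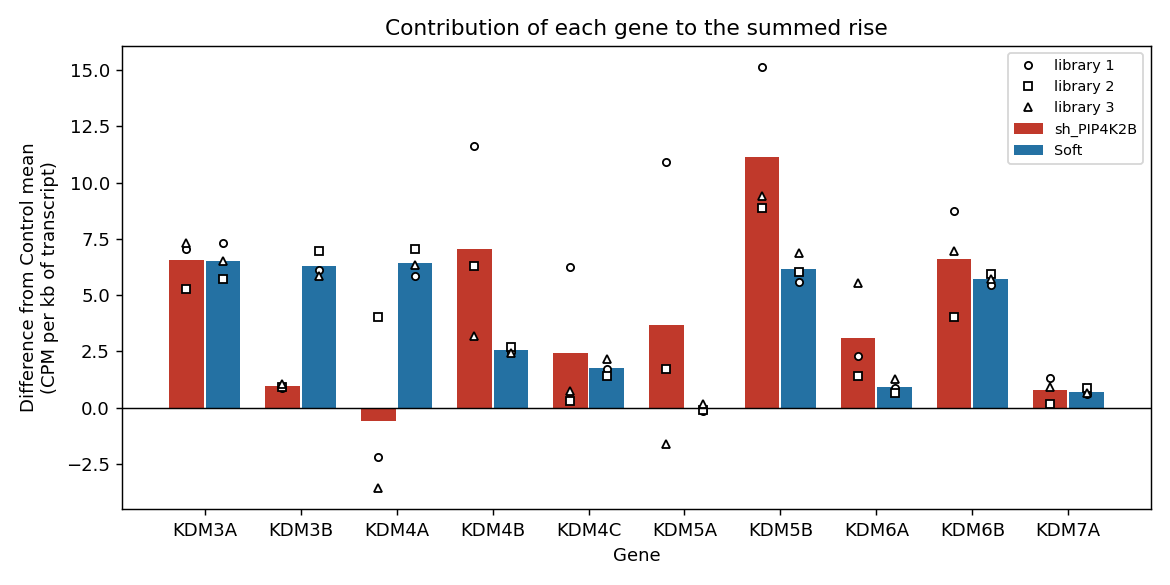
Difference of each demethylase from the Control mean in CPM per kb of transcript, with bars at the mean of 3 libraries in sh_PIP4K2B and Soft and a symbol for each library (in sh_PIP4K2B, each hairpin). KDM5B gives the largest part in sh_PIP4K2B, whereas KDM3A, KDM3B, KDM4A, KDM5B and KDM6B give nearly equal parts in Soft.

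By level per kb, KDM4A was the highest in Control at 10.7 CPM per kb, followed by KDM5B at 8.67, KDM3B at 7.87, KDM4B at 7.60, KDM5A at 7.51, KDM3A at 7.01, KDM4C at 4.84, KDM6A at 3.78, KDM6B at 2.28 and KDM7A at 0.239. Of these neighbours KDM3B and KDM4B, and KDM4B and KDM5A, overlapped in their ranges. In sh_PIP4K2B KDM5B led at 19.8 CPM per kb, and the ranges of all neighbours overlapped apart from KDM6A and KDM7A. KDM4A led in Soft again at 17.1, with KDM5B at 14.8 and KDM3B at 14.2. KDM6B moved from the ninth place in Control to the sixth in both other conditions, at 8.87 and 7.99 CPM per kb.

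The direct comparison of Soft with sh_PIP4K2B did not itself serve to choose the genes and was tested with edgeR over all 13784 genes. The genes were, however, put together for being higher in both conditions in these same libraries. Such a choice disfavours a difference here, so nothing is inferred from the number that passed. The p-values below are likewise not those of genes chosen without these libraries. Of the 10, 1 passed, KDM3B, beside 30% of all genes in either direction, 14.5% that were higher in Soft and 15.5% that were lower. KDM3B was higher in Soft by a log2 fold change of 0.68 (95% interval 0.49 to 0.88, adjusted p = 2.6e-04 by edgeR), and it passed in all 17 alternatives, with adjusted p from 1.2e-16 to 0.0049. KDM4A had the largest difference, 0.76 (0.25 to 1.27, adjusted p = 0.022 by edgeR), and did not pass unless hairpin #2 was left out (1.13), or under library size scaling or DESeq2. For KDM3B and KDM4A every Soft library was above every hairpin library, as for 27.3% of all genes tested. KDM5B was at -0.42 (-0.70 to -0.13, adjusted p = 0.023 by edgeR), KDM4B at -0.53 (-0.94 to -0.12, adjusted p = 0.040 by edgeR) and KDM6A at -0.54 (-0.98 to -0.11, adjusted p = 0.044 by edgeR), all 3 below 0 and none past the threshold. Each passed in some alternatives, KDM5B (-0.50) and KDM6A (-0.71) without hairpin #2 and KDM4B without hairpin #3 (-0.72) and with GC content and transcript length corrected (-1.03). Without hairpin #1 KDM4B was at -0.29. For KDM5B, KDM4B and KDM6A every Soft library was below every hairpin library, a pattern that 26.7% of all genes tested shared. For KDM3A the interval was -0.23 to 0.22, for KDM6B -0.54 to 0.24 and for KDM7A -0.96 to 0.72, so differences of those sizes remained possible. With the GC and length correction KDM6B was at -0.62, outside that interval, and did not pass. KDM5A (-1.31 to 0.15) and KDM4C (-0.72 to 0.44) had the widest intervals besides KDM7A.

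**Figure D4:**
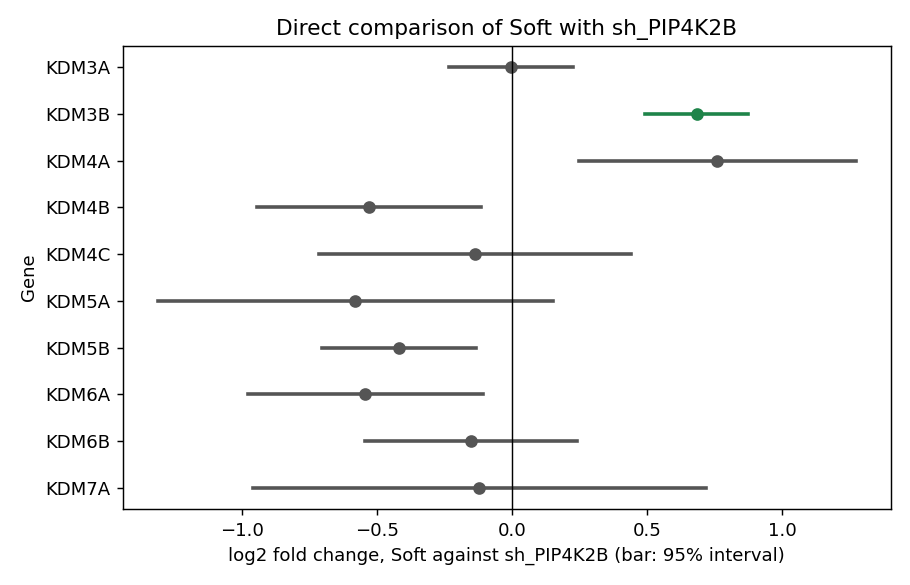
Log2 fold change of Soft against sh_PIP4K2B for each of the 10 demethylases, with a bar for its 95% interval, green where the adjusted p was under 0.01 (edgeR) and grey otherwise. KDM3B is the one green point, at 0.68, and KDM4A lies to the right of it with a wider interval.

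The 5 genes whose level over the 9 libraries was most like that of KDM6B, among 11683 with a mean of at least 50 counts, were SOCS3 (Pearson 0.989 on log2 CPM), CHD2 (0.987), ZNF251 (0.985), CEBPD (0.983) and PIM1 (0.982). SOCS3, a feedback inhibitor of cytokine signalling, was at 20.1 CPM in Control, 47.5 in sh_PIP4K2B and 47.0 in Soft. For KDM5B they were UBN2 (0.995), MIA3 (0.991), HERPUD2 (0.988), HLA-B (0.986) and ACVR2B (0.984). These values rest on 9 libraries in 3 conditions and are a description only.

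The promoter sequences of the 10 genes were read from RefSeq (GRCh38.p14), in 12 windows from 250 bases before to 50 after a start site. The core of the element bound by hypoxia-inducible factor, ACGTG or GCGTG on either strand, was looked for because several of these enzymes are known hypoxia targets, with overlapping matches counted once. It occurred in 10 of the 12 windows and 9 of the 10 genes, KDM3B being without one, and in 48.4% of the 35116 promoter windows of all genes. Both cores contain a CpG, and 11 of the 12 windows held 20 to 56 CpG and the other 2, beside a median of 14 over all windows, so the counts are not matched for base composition. A match in each of the 4 genes called in both conditions is shown in capitals, within 30 bases (KDM7A holds another after its start). Those of KDM6B and KDM7A lie before the gene as GENCODE annotates it, that of KDM5B is at its annotated start, and that of KDM3A lies inside the annotated gene, which begins farther upstream there.
KDM3A, chr2:86441333-86441362, plus strand: ccgggaggctgtGCGTGtcttgtgagagct
KDM5B, chr1:202808468-202808497, minus strand: cggaggcgcacgGCGTGggcttgcggcgag
KDM6B, chr17:7833974-7834003, plus strand: ccttagaagggcGCGTGatccaaatgagta
KDM7A, chr7:140177146-140177175, minus strand: ccggcgccagagACGTGcgcgagacgcacg
The KDM3B promoter, the exception, is shown as the 250 bases before its start site, in which the letters searched did not occur.
KDM3B, chr5:138352435-138352684, plus strand: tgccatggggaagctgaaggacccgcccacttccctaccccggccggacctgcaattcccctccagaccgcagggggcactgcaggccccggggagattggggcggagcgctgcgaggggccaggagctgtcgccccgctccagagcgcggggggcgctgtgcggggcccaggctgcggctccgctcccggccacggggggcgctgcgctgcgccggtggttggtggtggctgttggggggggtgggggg
Of other motifs searched on both strands, TGACG, part of the cAMP response element, occurred in KDM4C and KDM6A (24.6% of all windows) and the AP-1 motif TGANTCA in KDM3A, KDM4C and KDM6A (7.71%). The TEAD motif GGAATG occurred in none of the 10 genes (14.0%), and the E-box CACGTG, which contains the hypoxia core, in KDM4B, KDM4C and KDM6A (7.26%).

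Among 21 other JmjC and LSD-type proteins 0 were called in sh_PIP4K2B (median log2 difference 0.0093), and in Soft 5 were called higher and 2 lower (median 0.31). Of all genes tested, 2.76% were called higher and 2.77% lower in sh_PIP4K2B, and 15.8% and 14.8% in Soft. These shares stand beside the counts of this list and of each list below. The list mixes relatives of the 10 with more distant proteins, and in sh_PIP4K2B 11 lay above 0 and 10 below. The relatives PHF8, JMJD1C, KDM4D, KDM5C and PHF2 were at 0.79, 0.62, 0.53, 0.50 and 0.23 there. In Soft they were at 0.55, -0.25, 0.12, 0.70 and 0.94. JARID2 was at 1.37 in sh_PIP4K2B and 1.14 in Soft, and called in neither. PHF2, which acts on H3K9, was at 29.3, 34.3 and 56.1 CPM on average in Control, sh_PIP4K2B and Soft (Soft log2 fold change 0.94, SE 0.11, adjusted p = 2.2e-04 by edgeR). KDM5C, an H3K4 demethylase, was at 142.96, 202.71 and 232.62 CPM (Soft 0.70, SE 0.17, adjusted p = 0.0084 by edgeR). KDM8 and JMJD8 were also higher in Soft, and MINA (also RIOX2) and JMJD4 were lower, by -0.86 and -0.76 on the log2 scale. HR, a JmjC protein of hair follicle biology, was at 0.120 CPM in Control, 0.0949 in sh_PIP4K2B and 3.26 ± 0.306 in Soft (SD, n = 3), the first 2 below the level of 3 counts. It is among the 5 called higher in Soft. With 2 to 3 counts in Control, 0 to 4 in sh_PIP4K2B and 61 to 76 in Soft, it reached the test through Soft alone.

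**Figure D5:**
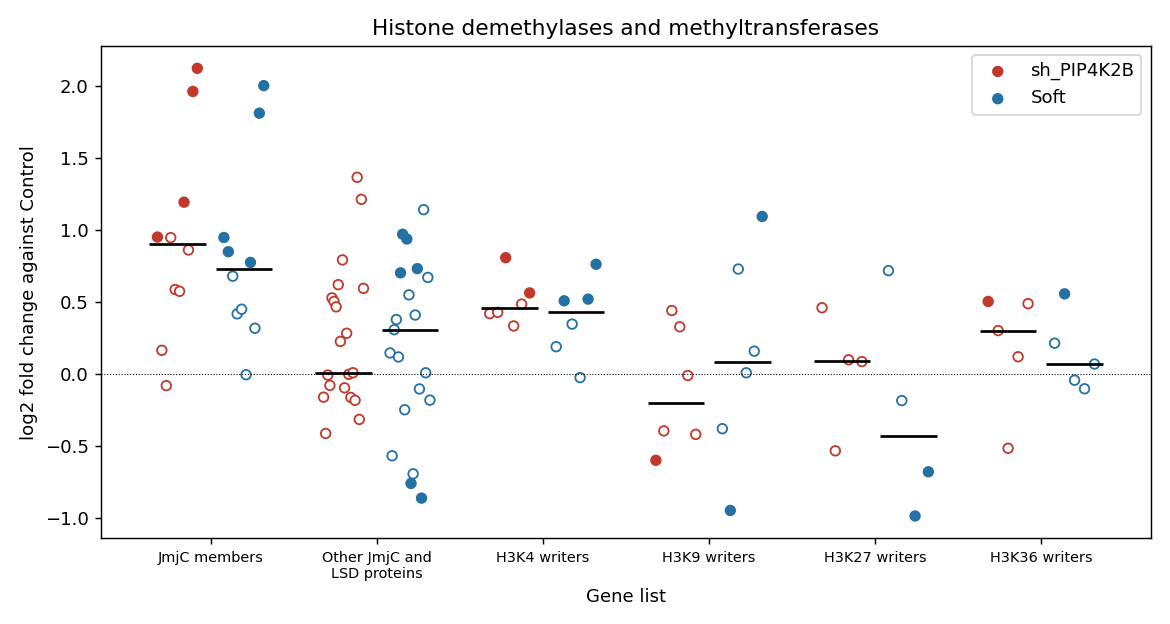
Log2 fold change against Control of the 10 demethylases, the other JmjC and LSD proteins and the methyltransferases of H3K4, H3K9, H3K27 and H3K36, 1 point per gene, red for sh_PIP4K2B and blue for Soft, filled where the adjusted p was under 0.01 (edgeR), with the median of the list as a line. HR lies outside the scale and is left out of the points but not of the median. The 4 methyltransferase lists hold 4 filled points in sh_PIP4K2B, and both filled H3K27 points in Soft lie below 0.

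The methyltransferases that place these marks were counted by substrate. Of 6 genes for H3K4, 2 were called higher in sh_PIP4K2B (KMT2C, 0.81, adjusted p = 0.0012 by edgeR, and SETD1B, 0.56, adjusted p = 0.0049 by edgeR) and 3 in Soft, with medians of 0.46 and 0.43. Of 6 for H3K9, SUV39H1 was called lower in sh_PIP4K2B (-0.60, adjusted p = 0.0083 by edgeR). In Soft SUV39H1 was lower too but not called (-0.38, adjusted p = 0.020 by edgeR), with every Soft library below every Control library. Called in Soft were EHMT2, which encodes G9a, as higher (1.09, adjusted p = 3.1e-04 by edgeR) and SUV39H2 as lower (-0.95, adjusted p = 0.0032 by edgeR). Of 4 for H3K27, the PRC2 subunits EED (-0.98, adjusted p = 5.8e-04 by edgeR) and SUZ12 (-0.68, adjusted p = 0.0066 by edgeR) were lower in Soft and none was called in sh_PIP4K2B. Of 5 for H3K36, SETD2 was higher in sh_PIP4K2B and NSD1 in Soft. The 7 partner subunits of KDM6A were called in neither condition.

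For the cofactor, 15 genes of 2-oxoglutarate metabolism were counted, of which 2 were called lower in sh_PIP4K2B (median -0.11) and, in Soft, 1 higher and 2 lower (median -0.028), with IDH2, a mitochondrial isocitrate dehydrogenase, lower in sh_PIP4K2B (-0.96, adjusted p = 0.0056 by edgeR). OGDH, a subunit of the enzyme that consumes 2-oxoglutarate in the cycle, was also lower in sh_PIP4K2B (-0.70, adjusted p = 0.0051 by edgeR), and IDH3A was lower in Soft (-0.84, adjusted p = 0.0013 by edgeR). Of 19 tested hypoxia genes, 1 was called higher in sh_PIP4K2B (median 0.32) and, in Soft, 5 were called higher and 2 lower (median 0.0075). VEGFA, an angiogenic growth factor, was higher in sh_PIP4K2B (0.80, adjusted p = 0.0053 by edgeR) and in Soft (3.08, adjusted p = 2.4e-06 by edgeR), and NDRG1 (2.21) and MXI1 (1.67) were higher in Soft. The 2 called lower in Soft were PGK1 (-0.96) and BNIP3L (-0.88). Of 4 tested regulators of the hypoxia-inducible factors, ARNT, the constitutive partner subunit, was called higher in Soft (0.67, adjusted p = 0.0010 by edgeR) and 0 were called in sh_PIP4K2B. Of 13 proliferation genes 12 were called lower in sh_PIP4K2B and 7 in Soft, such as the replication helicase subunit MCM6 (-0.98 and -0.77), while MKI67 (-1.09) and PLK1 (-1.04) were called lower in sh_PIP4K2B. The part of these genes in the values of the 10 was not tested.

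Transcript length and base composition moved with the comparisons. When tested genes were cut by transcript length into 3 equal parts, the longest, which held 9 of the 10 demethylases, had a median log2 difference from Control of 0.11 with the hairpins and -0.049 in Soft. Cut by GC content in the same way, the lowest part had a median of -0.27 in Soft and the highest, which held KDM4B and KDM6B, 0.29. With GC content and transcript length corrected, the log2 fold change of KDM6B in Soft was 1.32 and that of KDM4B -0.058. In sh_PIP4K2B KDM7A, at 1.93, did not pass under this correction.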

How the data were processed

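RNA of 9 hTERT_RPE1 libraries (3 conditions of 3) was analysed from 1 table. The authors prepared stranded mRNA libraries, used STAR to align paired 75-nt reads to GRCh38 (hg38), and made a table of estimated counts for each gene that was deposited without normalisation or pooling. The submitters' processing notes also name Salmon without a role, and the tool that counted reads and the annotation are not given in the sources used here. Of the values, 12.26% were not whole and all were rounded. Genes passing filterByExpr (13784) were fitted with edgeR 4.0.16 in R 4.3.3 (TMM, quasi-likelihood F test) over the 9 libraries, with Benjamini-Hochberg adjustment over all genes and a threshold of 0.01. SE is the log2 fold change over the square root of F. Levels per kb used the GENCODE 44 canonical transcript. The members and lists were chosen with earlier results of these data known. One gene of the 2-oxoglutarate list is not reported here. Alternatives were DESeq2 1.42.0, other filters and scalings, the 2 conditions alone, a replicate block, a GC and length correction, 0.05 as threshold, and leaving out each library. Named genes are the 10 members, every called gene among the other JmjC and LSD proteins, up to 3 called genes of each further list by the size of their change, and, for likeness, the 5 closest to KDM5B and to KDM6B. Markers at or near 0 and those in the check of the cell line were named after their values were seen. So were the hypoxia and proliferation genes called the other way from those the rule named, and JARID2 and the uncalled relatives of the 10. Same-numbered libraries did not deviate together (correlations of -0.12 to 0.039), so the main fit did not pair them. With 3 libraries per condition, which in sh_PIP4K2B differ by hairpin, this cannot exclude a pairing. The titles give the Control and Soft libraries the same vector numbers.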

Additional observations from a re-analysis of the deposited data

Results flagged for a closer look

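A difference between Soft and sh_PIP4K2B in the response to Control was tested as the direct comparison by edgeR at an adjusted p under 0.01. It set apart KDM3B of the demethylases and 17 more of the genes named by rule from the other lists. HR and PECAM1 passed too but are given by their levels alone, since they had few counts outside Soft. Of all genes tested, 30% passed this comparison. The rule named genes of the other lists for a call against Control in the same libraries. Such a choice favours a difference here, so nothing is inferred from their number. The differences are given here as log2 fold changes of Soft against sh_PIP4K2B. KDM3B was higher in Soft, by 0.68. Of the other JmjC proteins, PHF2 (0.71) and JMJD8 (0.89) were higher in Soft, and MINA (-0.68) and JMJD4 (-0.66) were lower. Of the methyltransferases, EHMT2 (1.51) was higher, and KMT2C (-0.46), EED (-1.08) and SUZ12 (-0.76) were lower. In 2-oxoglutarate metabolism IDH2 (1.02) and OGDH (0.50) were higher and IDH3A (-0.73) was lower. The hypoxia genes VEGFA (2.27) and MXI1 (1.01) and the proliferation genes MKI67 (0.79) and PLK1 (1.08) were higher in Soft. Over the whole lists, hypoxia genes went both ways, with 3 called higher in Soft and 3 lower. The 3 lower were PGK1 (-1.52), BNIP3L (-1.19) and BNIP3 (-1.05). Of the proliferation genes 6 were called higher and 1 lower (PCNA, -1.04). The markers OTX2 (1.12) and CD68 (1.18) were higher too.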

How the results depend on the processing

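The number of genes called in sh_PIP4K2B was 1997 with DESeq2, 5 with the 2 conditions alone and 2375 at a threshold of 0.05, and 66 to 2013 without 1 library. It was 295 with the replicate block, although no pairing by number was seen. For Soft it was 9601 with the 2 conditions alone, 6498 at 0.05, and 2506 to 6373 without 1 library. For the direct comparison the counts were 2183, 6372 and 2350 to 5374. Demethylases called higher in sh_PIP4K2B were 0 with the 2 conditions alone (where 0.0375% of all genes were called). Without 1 library they were 1 to 5, where 66 to 2013 of all genes were called in either direction. In Soft they were 9 with the 2 conditions alone (where 35.5% of all genes were called higher and 70.7% in either direction). Without 1 library they were 4 to 7 in Soft, where 2506 to 6373 of all genes were called in either direction. In the direct comparison, 5 were called at 0.05, beside 6372 of all genes, and 1 to 4 without 1 library, beside 2350 to 5374. With library size scaling, DESeq2 or the GC and length correction 2 were called. The share of all genes under those settings is not given here, so nothing is read from these counts. The members' median in Soft was 0.83 with library size scaling, 0.78 with the upper quartile and 0.58 with the GC and length correction, and in the direct comparison -0.065 with the upper quartile, -0.099 with the block, -0.25 with the correction and -0.42 to 0.019 without 1 library. Library size scaling moved the median of all genes in Soft by 0.11.

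Signs changed for 7 demethylases. KDM5A in Soft was 0.016 with at least 10 counts, 0.10 with library size scaling, 0.051 with the upper quartile, 6.3e-04 with the block, 0.080 with the correction and -0.029 to 0.0057 without 1 library. KDM3A in the direct comparison was 0.014, 0.0063, 0.071 and 0.067 under the same settings without the block, and -0.073 to 0.040 without 1 library. KDM4B in Soft was -0.058 and KDM7A in the direct comparison 0.34 with the correction. Without 1 library KDM4A in sh_PIP4K2B was -0.46 to 0.12, and in the direct comparison KDM4C was -0.34 to 0.29, KDM6B -0.35 to 0.026 and KDM7A -0.50 to 0.27. The cause was not tested. Without Control replicate 2 neither KDM3A nor KDM5B passed the threshold in sh_PIP4K2B, and KDM4B passed in 6 of 17 alternatives.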
